A study of Mus musculus with 3 samples.

Results

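The genes described here encode potassium channels and their accessory subunits in the developing mouse ureter, the tube of muscle and epithelium between kidney and bladder. They were chosen by name, as every gene whose symbol is Kcn followed by letters and a number, and 80 of the 18194 named genes on the array met that rule. The 80 genes were read by 158 of the 34958 probe sets with a single gene symbol (a probe set is a group of short probes that reads 1 transcript region), and the level of a gene is that of whichever of its probe sets averaged highest as log2(signal + 1). They comprised 31 voltage-gated, 15 inward rectifier, 12 two-pore and 8 calcium-activated channel genes and 14 genes of accessory subunits. The calcium-activated class includes Kcnt1, Kcnt2 and Kcnu1, relatives gated by sodium, or by voltage and pH. The samples were 3 ureter samples from wild-type FVB/N embryos, at day 15 of gestation (Theiler stage 23, sex unknown), named replicates 3, 8 and 9, cut out between the renal pelvis and the bladder, not pooled, and amplified in 2 rounds before being read on 1-colour arrays of the type Affymetrix Mouse Genome 430 2.0. The series holds this 1 group and no second stage, tissue or genotype, so no test between groups was possible and all values below are descriptions. Whether separate embryos or litters were used is not in the labels, and the spread between samples may be technical.

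Potassium channels let potassium ions leave or enter cells along their gradient and so set the resting membrane potential and end electrical excitation. Voltage-gated channels open on depolarisation, calcium-activated channels open when calcium inside the cell rises, inward rectifiers pass current more easily into the cell than out of it, and two-pore channels carry steady background current. In smooth muscle these currents hold back contraction, and in the ureter they shape the electrical activity behind peristalsis. Accessory subunits form no pore themselves and change the gating, trafficking or calcium sensitivity of the channels they join.

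A gene is called above background here when its signal exceeded, on each of the 3 arrays, the 95th percentile of 51 measured reference genes known from other organs, such as retina, testis, lens and stomach. Background defined in this way lay at 397, 379.6 and 620.0 in replicates 3, 8 and 9. Signals are linear intensities on arrays scaled to a common mean. Brightness depends on the probes as well as on the transcript, so the signals of different genes are not ranked against each other. In whole tissue, fewer cells of a type and less RNA per cell cannot be told apart.

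Of the 80 potassium channel genes, 10 (12.5%) were above background on all 3 arrays, beside 51.6% of all 18194 named genes. They were the voltage-gated channel genes Kcna5 and Kcnd3, the inward rectifier gene Kcnj8, the two-pore channel genes Kcnk1, Kcnk2 and Kcnk6, the calcium-activated channel gene Kcnn4 and the accessory subunit genes Kcnab1, Kcne4 and Kcnmb4. A further 3 genes were above background on 2 arrays, 6 genes on 1 array and 61 on none. By probe set, 10 of 158 (6.33%) were above background on all arrays, beside 39.9% of all probe sets with a single symbol. The number of probe sets per gene was similar, 1.98 for potassium channel genes and 1.92 for all named genes. By class, the share above background was 2 of 31 voltage-gated genes (6.45%), 1 of 15 inward rectifier genes (6.67%), 3 of 12 two-pore genes (25.0%), 1 of 8 calcium-activated genes (12.5%) and 3 of 14 accessory genes (21.4%). The classes are small, and differences between their shares were not tested.

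The tissue label was set against marker genes. All 5 ureteric mesenchyme markers were above background, as were 3 of 6 smooth muscle markers (Acta2, Actg2 and Des) and 3 of 6 urothelial markers (Upk1b, Krt5 and Trp63), whereas the uroplakin genes Upk1a and Upk2 were below background on every array. All 6 renal tubule markers were below background on every array. Markers of other cells were also above background: 4 of 5 measured neuronal, 2 of 4 glial, 3 of 5 endothelial, 4 of 5 pericyte, 4 of 5 macrophage, 3 of 4 erythroid, 4 of 4 hepatocyte and 5 of 5 skeletal muscle markers. Which of these cells gave the potassium channel signals was not tested.

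Promoter sequence was available for 61 of the 80 genes, 9 of them above background, from RefSeq on build GRCm38.p6. Only the 250 bases before the annotated start were used. Genes with several starts were given the median CpG count over them, and counted as having a motif if any of their stretches held it. The 4 stretches below are shown because they span the range among the genes above background and include the neighbouring pair Kcnj8 and Abcc9 described below. They are written 5′ to 3′ on the strand of the gene, with each CG dinucleotide (a CpG site, where mammalian DNA can be methylated) in capitals. The stretch before Kcnk1 is chr8:125994852-125995101 on the plus strand. Those before Kcnmb4, Kcnj8 and Abcc9 are chr10:116473524-116473773, chr6:142571615-142571864 and chr6:142702275-142702524, all on the minus strand.
Kcnk1: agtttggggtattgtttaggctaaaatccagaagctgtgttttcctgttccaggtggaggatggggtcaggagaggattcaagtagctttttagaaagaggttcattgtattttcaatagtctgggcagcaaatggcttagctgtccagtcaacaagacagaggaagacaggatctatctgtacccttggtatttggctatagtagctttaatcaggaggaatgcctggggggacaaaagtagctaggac
Kcnmb4: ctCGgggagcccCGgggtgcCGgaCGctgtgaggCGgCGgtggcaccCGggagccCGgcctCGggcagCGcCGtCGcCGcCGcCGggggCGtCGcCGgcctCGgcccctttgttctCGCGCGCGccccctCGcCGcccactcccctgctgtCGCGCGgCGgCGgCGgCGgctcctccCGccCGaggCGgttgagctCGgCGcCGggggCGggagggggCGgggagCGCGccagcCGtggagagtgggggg
Kcnj8: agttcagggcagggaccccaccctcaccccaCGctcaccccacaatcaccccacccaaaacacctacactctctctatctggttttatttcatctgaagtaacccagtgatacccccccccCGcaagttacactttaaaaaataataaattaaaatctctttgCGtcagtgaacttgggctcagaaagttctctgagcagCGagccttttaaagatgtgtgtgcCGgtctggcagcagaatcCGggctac
Abcc9: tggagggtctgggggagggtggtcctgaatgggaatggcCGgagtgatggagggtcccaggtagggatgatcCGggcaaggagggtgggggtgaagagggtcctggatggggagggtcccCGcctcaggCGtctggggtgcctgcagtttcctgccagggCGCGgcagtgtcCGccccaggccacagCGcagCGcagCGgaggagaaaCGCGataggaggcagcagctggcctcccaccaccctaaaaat
The stretch before Kcnk1 held 0 CpG sites and that before Kcnmb4 held 43, the lowest and the highest counts among the genes above background. Kcnj8 had 6 and Abcc9 12.

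Over the 9 potassium channel genes above background with a promoter in the table, the median was 6 CpG sites, and over the 52 not above background it was 9. Among 7621 other genes above background the median was 17 (quartiles 11 and 23), and among 6771 other genes not above background it was 6 (quartiles 3 and 15). Of the 9 genes, Kcnmb4 and Kcnd3 (18 sites) exceeded the median of other genes above background. The other 7, including Kcnk2 (16), Kcne4 (7), Kcnn4 (6), Kcna5 (3) and Kcnab1 (2), were below it. The motif TATAAA, searched on both strands, was in none of the 9 promoters, in 3 of all 61 and in 10.5% of all named genes with a promoter. The CArG box, the motif bound by serum response factor in many smooth muscle genes, was in none of the 61, beside 1.43% of all named genes. These matches describe the letters of a short window and say nothing about the factors.

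**Figure D1:**
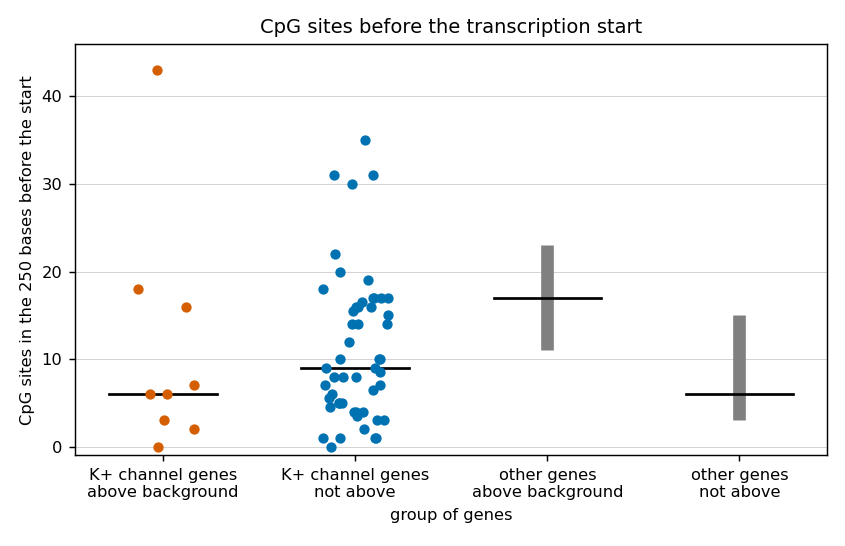
Number of CpG sites in the 250 bases before the annotated transcription start (vertical axis) for potassium channel genes above background (n = 9) and not above background (n = 52), 1 point per gene with the median as a black line, and for other named genes, drawn as the median (black line) and quartiles (grey bar). The medians are 6, 9, 17 and 6 from left to right, and Kcnmb4 is the point at 43.

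Among the voltage-gated genes, Kcna5 and Kcnd3 were above background. Kcna5, which encodes the delayed rectifier Kv1.5 known from heart and vascular muscle, had signals of 1192, 898 and 2439 in replicates 3, 8 and 9, a mean of 1510 ± 818 (SD, n = 3, as for all values given as mean ± SD). Each exceeded the background of its array at least 2.37-fold, and replicate 9 stood above the other two. The other 6 measured Kcna genes (Kcna1, Kcna2, Kcna3, Kcna4, Kcna6 and Kcna7), some of them known from axons, were below background on every array, with mean signals from 93.2 to 191.

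Kcnd3 encodes Kv4.3, a channel of fast, inactivating A-type current. Its signals were 1667 in replicate 3, 4285 in replicate 8 and 1801 in replicate 9 (2584 ± 1474), so that replicate 8 was high and the other two were close. The value rests on 1 of its 4 probe sets, and the other 3 were below background on every array, the highest of their signals being 281. The sister genes were above background in replicates 3 and 8 only. Kcnd1 (Kv4.1) had signals of 434, 470 and 578, and Kcnd2 (Kv4.2) had 526, 473 and 239. In replicate 9 Kcnd2 was at 0.385 times the background. Kcnd1 was the gene just outside the limit, at 0.932 times the background in replicate 9, and Kcnmb4 the gene just inside it, at 1.22 times the background in replicate 9. Without replicate 9, whose background was the highest, 4 voltage-gated genes were above background, Kcnd1 and Kcnd2 being added.

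No Kv4 partner gene was above background on all arrays. The calcium-binding subunit genes Kcnip1, Kcnip2, Kcnip3 and Kcnip4 were below background on every array, although Kcnip4 reached 566 in replicate 9 against 73.1 and 90.7 in the others. Dpp6, whose product is a Kv4 partner at the membrane, had signals of 316, 728 and 467 and was above background in replicate 8. Its relative Dpp10 had 54.3, 344 and 950 and was above background in replicate 9.

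Of the other voltage-gated genes, Kcnh2, Kcnq3 and Kcns3 exceeded background on some arrays. Kcnh2, the ERG channel gene of cardiac repolarisation, had signals of 218, 403 and 739 and was above background in replicates 8 and 9. Kcnq3, which encodes a subunit of the neuronal M current, had 58.5, 204 and 835 and was above it in replicate 9. Kcns3, a modifier subunit gene whose product forms no channel alone, had 736, 355 and 194 and was above it in replicate 3. Of the 9 modifier subunit genes, the other 8 (Kcnf1, Kcng1, Kcng2, Kcng4, Kcns1, Kcns2, Kcnv1 and Kcnv2) were below background on every array. So were Kcnc1, Kcnc2 and Kcnc4, which encode channels of fast-firing neurons, the EAG family genes Kcnh1, Kcnh3, Kcnh5, Kcnh7 and Kcnh8, and Kcnq1 and Kcnq5. Over all 24 voltage-gated genes below background on every array, mean signals ran from 1.92 (Kcnh5) to 313 (Kcnq5).

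**Figure D2:**
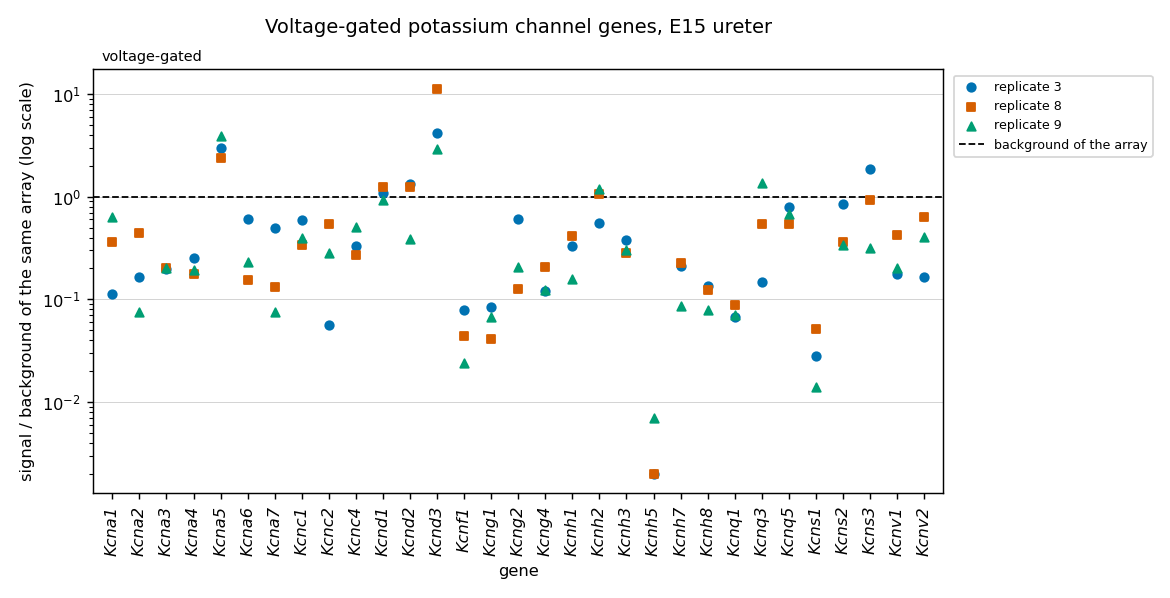
Signal of each of the 31 voltage-gated potassium channel genes divided by the background of the same array (log scale), 1 symbol per replicate, with background as a dashed line at 1. Kcna5 and Kcnd3 lie above the line in all 3 replicates, whereas Kcnd1, Kcnd2 and Kcnh2 lie above it in 2 and Kcnq3 and Kcns3 in 1.

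At the Kcnq1 locus the noncoding transcript was above background and the channel gene was not. Kcnq1, which encodes the slow delayed rectifier of heart and epithelia, had signals of 26.7, 33.6 and 43.1 with its 1 probe set. Kcnq1ot1, the imprinted noncoding RNA transcribed from within Kcnq1, had 3598, 1457 and 4335, and replicate 8 was the low one. Of its 6 probe sets, 2 were above background on all arrays. Akap9, whose product anchors kinases at the KCNQ1 channel, had signals of 2461, 2585 and 2731, which lay close together. It too had 6 probe sets, 2 of them above background on all arrays. Of the Kcne genes that met the symbol rule, Kcne4 was above background on all arrays, with the values given among the accessory subunits. Kcne1, Kcne2 and Kcne3 were below background on every array, with mean signals of 63.1, 13.9 and 104. Kcne1l, outside the rule, was above background in replicate 8, at 456.

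Among the inward rectifiers, Kcnj8 was above background on all arrays. Kcnj8 encodes Kir6.1, the pore of the ATP-sensitive channel of vascular smooth muscle and pericytes. Its signals were 824, 864 and 1089.6 (926 ± 143), between 1.76 and 2.28 times the background, and they varied little between samples. Abcc9, whose product SUR2 is the regulatory subunit that Kir6.1 joins, was above background too, with signals of 1670, 1032 and 1251 (1318 ± 324). A second Abcc9 probe set was above background on all arrays and another on 2.

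Kcnj8 and Abcc9 are neighbours in the mouse genome, and the promoters of both are shown above. Of 11 neighbouring pairs among the potassium channel and partner genes, with no other protein-coding gene between them, this was the 1 pair in which both genes were above background, beside 34.9% of 14185 neighbouring pairs of named genes. In 1 pair a single gene was, Kcna5 beside Kcna1, and in the other 9 neither was. The paralogous pair Kcnj11 and Abcc8, which encodes the ATP-sensitive channel of pancreatic beta cells, was 1 of those 9. Kcnj11 (Kir6.2) had signals of 614, 162 and 613 and exceeded background in replicate 3, while Abcc8 (SUR1) had 223, 159 and 123 and was below it on every array. With the 99th percentile of the reference genes as background, Kcnj8 was no longer above it.

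The remaining inward rectifiers were mostly dim. Kcnj16, which encodes Kir5.1, a subunit that pairs with Kir4.1 in kidney and glia, had signals of 144, 941 and 451 and was above background in replicate 8. Its partner gene Kcnj10 (Kir4.1) had 116, 160 and 56.1 and was below it on every array. Also below on every array were Kcnj2, Kcnj4, Kcnj12 and Kcnj14, of the strongly rectifying Kir2 family, Kcnj3, Kcnj5, Kcnj6 and Kcnj9, whose products form channels opened by G proteins, and Kcnj13 and Kcnj15. The renal tubular channel gene Kcnj1 (ROMK) had signals of 55.7, 14.4 and 16.5, and the 6 renal tubule markers had a summed signal of 568 to 793. Mean signals of the 12 genes below background on every array ran from 18.6 (Kcnj2) to 224 (Kcnj6).

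Of the two-pore channel genes, Kcnk1, Kcnk2 and Kcnk6 were above background and none was above it on 1 or 2 arrays. Kcnk2 encodes TREK-1, a channel opened by stretch of the membrane. Its signals of 2474, 4103 and 3198 (3258 ± 816) were at least 5.16 times the background. Kcnk1 encodes TWIK-1, and its signals of 2267, 4214 and 1784 (2755 ± 1286) placed replicate 8 above the others. The second Kcnk1 probe set was below background on every array, at 364, 344 and 220. Kcnk6, the gene of the related channel TWIK-2, had signals of 1431, 1029 and 1819 (1427 ± 395), with replicate 8 the lowest.

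The other 9 two-pore genes were below background on every array, with mean signals from 28.3 (Kcnk12) to 280.3 (Kcnk3). Kcnk3, which encodes the acid-sensitive channel TASK-1, had signals of 121, 339 and 382. Kcnk4 (TRAAK) and Kcnk10 (TREK-2), the closest relatives of TREK-1, had mean signals of 50.9 and 173. The rest were Kcnk5, Kcnk7, Kcnk12, Kcnk13, Kcnk15 and Kcnk16.

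Kcnn4 was the calcium-activated channel gene above background. It encodes the intermediate-conductance channel known as the Gardos channel of red blood cells, also found in leukocytes and epithelia. Its signals were 5719, 1409.8 and 4648 (3925 ± 2243), so that replicate 8 stood well below the others. The second Kcnn4 probe set had 847, 235 and 525, with replicate 8 again the lowest, and exceeded background in replicate 3. The small-conductance genes Kcnn1, Kcnn2 and Kcnn3 were below background on every array, with mean signals of 180.1, 83.1 and 11.2.

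Kcnma1, the pore gene of the large-conductance BK channel that relaxes mature smooth muscle, had signals of 374, 418 and 274 and was above background in replicate 8. Its other 4 probe sets were below background on every array, with signals up to 273. Kcnmb1, the BK beta subunit gene of smooth muscle, was below background on every array at 254, 195 and 196. In the same samples the smooth muscle markers Acta2 (32411, 27441 and 35287), Actg2 (2841, 3539.9 and 2250.5) and Des (455, 464 and 707) were above background on all arrays, Tagln and Myh11 on 2 and Cnn1 on 1. The sodium-activated channel genes Kcnt1 and Kcnt2 and the sperm channel gene Kcnu1, relatives of Kcnma1, were below background on every array.

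**Figure D3:**
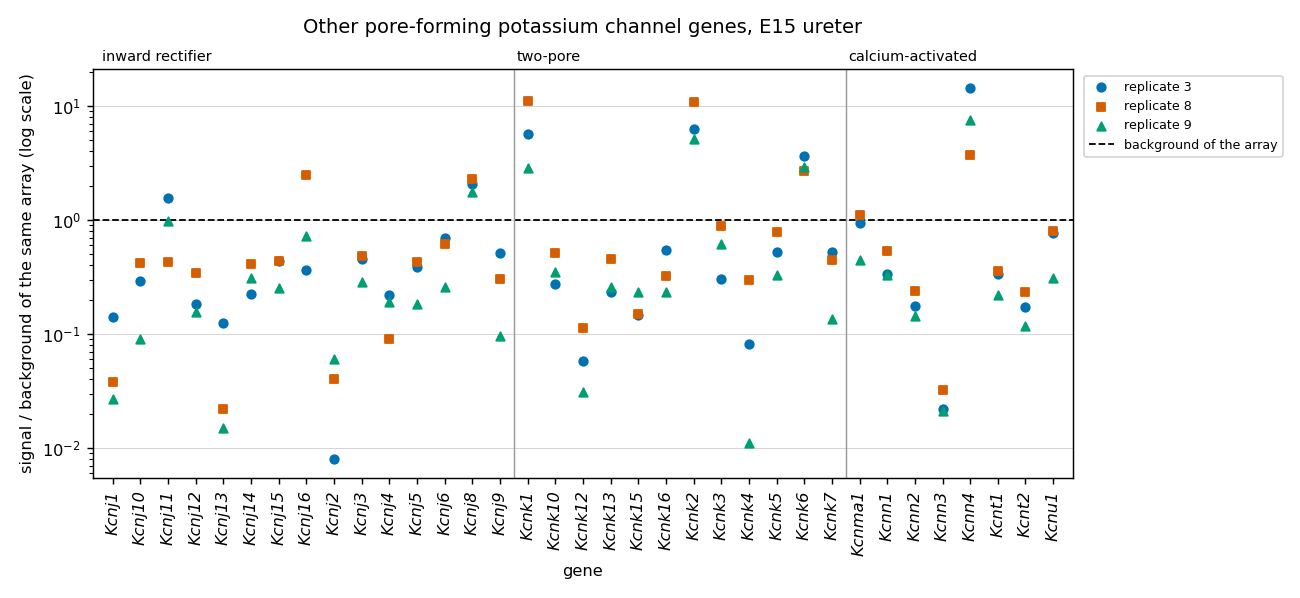
Signal of each of the 15 inward rectifier, 12 two-pore and 8 calcium-activated channel genes divided by the background of the same array (log scale), 1 symbol per replicate, with background as a dashed line at 1. Kcnj8, Kcnk1, Kcnk2, Kcnk6 and Kcnn4 lie above the line in all 3 replicates, and Kcnj11, Kcnj16 and Kcnma1 in 1.

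Of the 14 accessory subunit genes, Kcnab1, Kcne4 and Kcnmb4 were above background. Kcnab1 encodes a cytoplasmic beta subunit of the Kv1 channels, the family of Kv1.5, and had signals of 1379, 993 and 1039 (1137 ± 211). Its second probe set was below background on every array, at 103, 144 and 230.4. Kcne4, a single-pass membrane subunit that dampens KCNQ1 and some Kv1 channels, had signals of 972, 1613 and 1476 (1354 ± 337), with replicate 3 the lowest.

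Kcnmb4, the BK beta subunit gene best known from brain, had signals of 559, 879 and 754 (731 ± 162). Kcnmb2, another BK beta subunit gene, had 217, 398 and 587 and was above background in replicate 8. Kcnab2 and Kcnab3 were below background on every array, at mean signals of 309 and 34.6. With the 99th percentile of the reference genes as background, Kcnab1 alone of the accessory genes was above it.

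Of 16 partner genes listed outside the symbol rule, 11 were measured and 3 (Abcc9, Akap9 and Kcnq1ot1) were above background on all arrays (27.3%), beside 51.6% of all named genes. Kcnq1ot1 was listed as a noncoding transcript at the Kcnq1 locus, not as a channel partner. The count was 5 with the 90th percentile of the reference genes as background, beside 60.2% of all named genes. It was 1 when all probe sets of a gene were averaged, beside 38.7%. Dpp6, Dpp10 and Kcne1l exceeded background on 1 array, Kcne1l with signals of 269, 456 and 492. The other 5 were below it on every array: Abcc8, the Kv2 partner gene Amigo1 and the BK gamma subunit genes Lrrc26, Lrrc38 and Lrrc52.

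**Figure D4:**
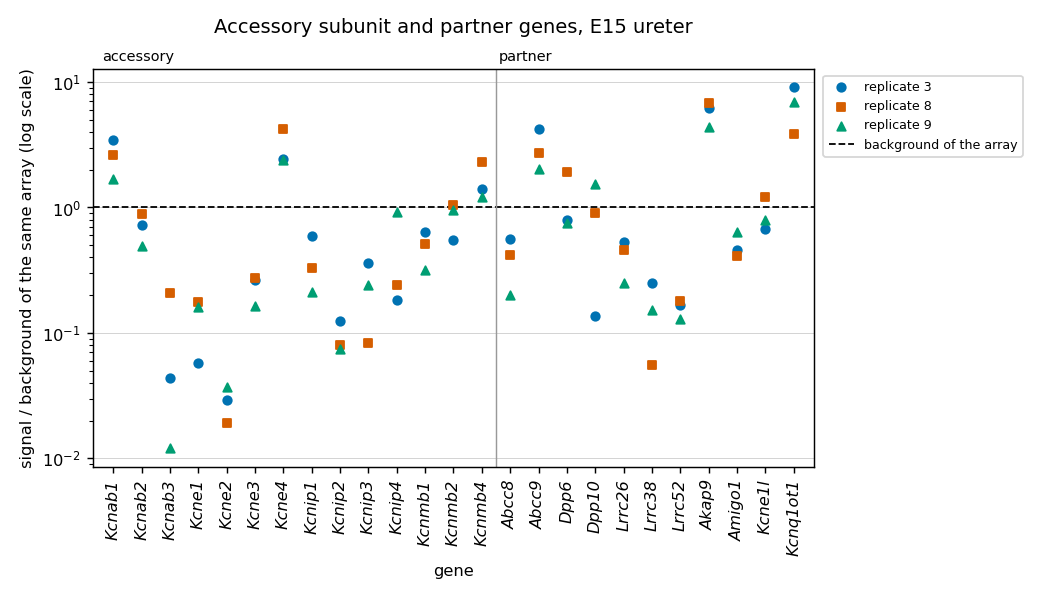
Signal of each of the 14 accessory subunit genes and 11 partner genes divided by the background of the same array (log scale), 1 symbol per replicate, with background as a dashed line at 1. Kcnab1, Kcne4, Kcnmb4, Abcc9, Akap9 and Kcnq1ot1 lie above the line in all 3 replicates.

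The spread between samples was measured as the range of log2 signals over the 3 samples, after taking off the median deviation of each array. Among the 10 potassium channel genes above background the median range was 0.79, beside 0.53 over all 9383 genes above background and 0.59 over the 5013 of those whose mean signals lay between 731 and 3925, as theirs did. A range of at least 1, a doubling, was found for 4 of the 10 genes (Kcnn4 at 2.04, Kcna5 at 1.49, Kcnd3 at 1.34 and Kcnk1 at 1.19), beside 13.8% of all genes above background and 18.5% of those with mean signals in that span. The count was 1 without replicate 8 and 2 without replicate 9. A range over 2 arrays is rarely larger than one over 3, and the share of all genes over 2 arrays was not computed. The least variable were Kcnj8 (0.43), Kcnab1 (0.49) and Kcnmb4 (0.63).

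Which sample was highest differed from gene to gene. Kcnd3, Kcnk1, Kcnk2, Kcne4 and Kcnmb4 were highest in replicate 8, Kcna5, Kcnj8 and Kcnk6 in replicate 9, and Kcnn4 and Kcnab1 in replicate 3. Kcna5, Kcnk6, Kcnn4 and Kcnab1 were lowest in replicate 8. The share of all genes that was lowest in each replicate was not computed. No sample was thus high or low for the 10 genes together.

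Levels of marker lists also differed between the samples. Marker genes were ordered by signals as deposited, and the potassium channel genes by centred values. The 5 ureteric mesenchyme markers, all above background and all highest in replicate 8, had summed signals of 27442, 51316 and 31064 in replicates 3, 8 and 9. Kcnd3, Kcnk1, Kcnk2, Kcne4 and Kcnmb4 were highest in the same replicate, as were 32.7% of all genes above background. The 5 measured neuronal markers, 4 of them above background and all lowest in replicate 3, summed to 4626, 11618 and 12359, and Kcnd3, Kcnj8, Kcnk2, Kcne4 and Kcnmb4 were lowest in replicate 3 too.

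The 4 measured erythroid markers, 3 of them above background, summed to 125511, 67132 and 96172, the 5 macrophage markers, 4 of them above background, to 16507, 9085 and 24819, and the 4 measured hepatocyte markers, all above background, to 179934, 105608 and 151058. Every marker of these 3 lists was lowest in replicate 8, as were Kcna5, Kcnk6, Kcnn4 and Kcnab1. No marker of the mesenchymal, neuronal, erythroid, macrophage and hepatocyte lists was below background on every array. Glial markers, 2 of 4 above background and Foxd3 below it on every array, summed to 5700, 5075 and 8553, with all 4 highest in replicate 9.

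The pericyte and smooth muscle lists had no common order. The 5 pericyte markers, 4 of them above background and Anpep below it on every array, summed to 17266, 13406 and 19212, but 4 were highest in replicate 3 and Pdgfrb alone in replicate 9 (5111, 4653 and 9705). Of those 4, Cspg4 was nearly level between replicates 3 and 9, at 1718 and 1702. The smooth muscle sum of 35205 to 39488 was mostly Acta2. Within that list Tagln (1928, 1654 and 613) and Myh11 (1647, 1620.2 and 465) were lowest in replicate 9, and Cnn1 had 207, 486 and 156. The urothelial, endothelial and skeletal muscle lists had no common order either. Urothelial markers summed to 9805, 9154 and 8855, with 3 of 6 peaking in replicate 3 and 3 of 6 lowest in replicate 9. Replicate 9 gave the lowest signal for 4 of 5 endothelial and 4 of 5 skeletal muscle markers, and also for Kcnk1. The part of any of the listed cell types in the potassium channel signals was not tested.

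**Figure D5:**
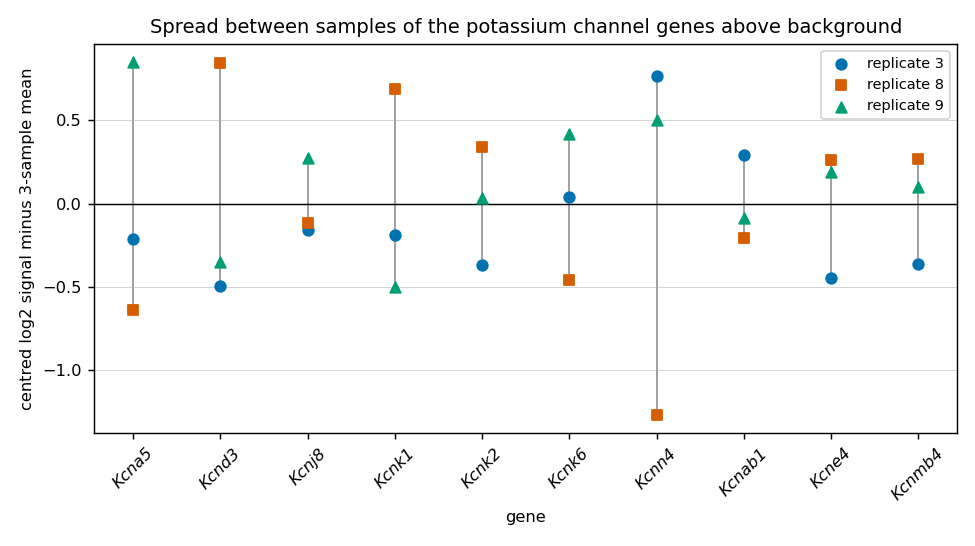
Centred log2 signal minus the mean over the 3 samples (vertical axis) for the 10 potassium channel genes above background, 1 symbol per replicate, with a grey line over the range. The line is longest for Kcnn4 (2.04) and shortest for Kcnj8 (0.43).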

How the data were processed

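RNA of 3 ureter samples was measured on Affymetrix Mouse Genome 430 2.0 arrays. The authors deposited linear intensities for 45101 probe sets on each array. They were made with GCOS, per the submitters' processing notes, and its version, algorithm and settings are not stated there. The 2% trimmed mean was 1500.0 on every array, so arrays had been scaled to a common mean, and medians were 234, 198 and 273 in replicates 3, 8 and 9. The number of arrays limits the precision.

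Gene names came from GEO's annotation of the platform: 34958 had 1 gene symbol, 932 several and 9211 are not named here. All 80 symbols matched the reference table of GRCm38.p6 by Entrez ID. Amplification starts at the 3′ end, so probe sets further upstream may read low even where a gene is expressed. Signals were analysed as log2(signal + 1) in Python 3.11.15 with pandas 2.3.3.

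Background was set per array from 60 listed genes of 10 tissues, 51 of them measured, of which Cela1 and Tff1 were themselves above it on all arrays. Cbln1 was above it on 2 arrays and Cpa1 on 1. In replicate 9 the background of 620.0 fell between Cbln1 (777) and Cpa1 (495), so it depended on those 2 genes. The genes, lists and limits were chosen with earlier results of these data known. Named were all 80 genes, with values in every sample for those above background on at least 1 array. The code for counts and ranges was run on simulated arrays. Planted genes there lay far above the rest, so calls near the background were not tested. Pore sequences, also planned, are not used here. The alternatives tried were a pseudocount of 16 or of 64, quantile normalization, averaging all probe sets per gene, no _s_at and no _x_at probe sets, a background at the 90th or at the 99th percentile, at least 2 arrays, no exocrine pancreas reference genes, leaving out each replicate, no filter and no centring. An alternative without exocrine pancreas and stomach reference genes was chosen after seeing the data.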

Additional observations from a re-analysis of the deposited data

How the results depend on the processing

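The count of 10 potassium channel genes above background ranged from 7 (99th percentile, without Kcne4, Kcnj8 and Kcnmb4) to 13 (at least 2 arrays, beside 57.5% of all named genes). When a replicate was left out it was 10 to 12, beside 51.9% to 56.5% of all named genes. Only the remaining 2 arrays then had to exceed background, so counts above background could hardly fall. Averaging all probe sets per gene gave 8, without Kcnab1 and Kcnd3, beside 38.7% of all named genes. The 99th percentile lowered the accessory count from 3 to 1 and the inward rectifier count from 1 to 0, and the share of all named genes to 41.6%. Voltage-gated genes numbered 5 with at least 2 arrays, 1 with the mean of probe sets, and 2 to 4 when a replicate was left out. Partner genes above background numbered 5 with the 90th percentile and without exocrine pancreas and stomach reference genes, beside 60.2% of all named genes at either setting. They numbered 1 with the mean of probe sets, beside 38.7%. Genes with a range of at least 1 numbered 2 with the mean of probe sets and 43 of 80 with no filter on low values. They numbered 1 to 4 when a replicate was left out, where a range over 2 arrays is rarely larger than one over 3. The shares of all genes with such a range at these settings were not computed. Of 105 recomputed counts, 93 stayed within 1.5 times the original, a limit under which a fall from 10 to 7 counts as staying. The counts overlap, as the classes are parts of the whole. A pseudocount is added to signal and background alike, and neither pseudocount changed any count. Quantile normalization keeps the order of signals on each array, so counts above background could hardly change with it, and none did. Genes not above background may be expressed below what these probe sets resolve. No paired analysis was possible because there is 1 group of samples.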
